A study of Mus musculus with 9 samples.

Results

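The 7 genes described here, Krt7, Krt19, Epcam, Sox9, Cftr, Spp1 and Pkhd1, are markers of cholangiocytes, the epithelial cells that line the bile ducts, and of the ductular reaction. They were found by symbol in the deposited table and are 7 of its 27179 genes. All 7 had reads. The study asked what loss of Ccnd1, the gene of the cell cycle regulator cyclin D1, does in hepatocytes of the aged mouse liver. Bulk poly(A) RNA of a piece of the liver m-lobe was sequenced from 9 C57BL/6J mice labelled WT. All were injected at 17 months of age with 3e+11 vector genomes of AAV8 and sampled 3 weeks later. The vector drove the nuclease saCas9 from the TBG promoter and a guide RNA from the U6 promoter. That guide was directed at the Rosa26 locus in 4 control mice (sgRosa26, libraries A to D) and at Ccnd1 in 5 mice (sgCcnd1, libraries E to I), so the controls also received a nuclease with a guide. The letters only name libraries, in the order of the table's columns. The TBG promoter is active in hepatocytes, so the design places the nuclease in those cells and not in the bile duct epithelium, while the sequenced RNA came from all cells of the tissue piece.

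Cholangiocytes form the ducts that carry bile from hepatocytes out of the liver and modify it by secreting chloride, bicarbonate and water. They arise in development from the same precursors as hepatocytes, under Notch signalling and factors such as SOX9. In many injured livers ductular cells multiply at the edge of the portal tracts, which is called a ductular reaction, and keratins 7 and 19, EpCAM, SOX9 and osteopontin are the usual markers of it. These markers are not unique to ducts: keratin 19 is also made by the mesothelium of the liver capsule, SOX9 by some periportal hepatocytes and osteopontin by macrophages.

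None of the 7 genes passed the test between groups after adjustment over all genes. Sox9 was lower in sgCcnd1 with a 95% interval that excluded 0 before that adjustment, and the intervals of the other 5 genes tested included 0. Genes averaging 10 or more normalized counts over the 9 libraries were tested, which 6 of the 7 did, and 0 of 6 passed an adjusted p of 0.05 in limma. Of all 12993 genes tested, 0.00770% were called lower in sgCcnd1 (1 gene, Ccnd1 itself) and 0% higher. At an unadjusted p under 0.05 there was 1 of 6, Sox9, beside 11.0% of all genes tested. The groups did not overlap in 0 of 6, beside 3.89% of all genes. DESeq2 on the recovered reads also called 0 of these 6 genes, with the adjusted p of Krt7 undefined, beside 0.900% of all genes tested. The log2 fold changes of the 6 genes ranged from -0.51 to 0.26 with a median of -0.09, beside a median of 0.01 over all genes tested.

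Libraries held 10.8 to 20.2 M gene-assigned reads each. Ccnd1 checked the labels: it had 744 ± 110 normalized counts in the controls (SD, n = 4) and 362 ± 40.6 in sgCcnd1 (SD, n = 5), and its log2 fold change was -1.03 (SE 0.11, limma adjusted p = 0.0116). Every sgCcnd1 library lay below every control for this gene. One library stood apart: the Y-linked Ddx3y had 2.00 normalized counts in library H and 810 to 1154 in the other 8. Without H, as without any other single library, 0 of the 6 genes tested passed. The labels do not say whether the animals shared a cage, litter or day, so p-values measure the spread between these mice only.

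Promoter sequences are shown for 2 of the genes, Epcam and Spp1. They were chosen after the values were seen, because both genes varied together between animals. Each window runs from 250 bases before to 50 bases after a RefSeq transcription start in GRCm38.p6 and is printed in the direction of the gene. Both strands were searched for 5 motifs, and capitals mark every match. TEAD sites were searched as GGAATG. For RBPJ, the Notch effector, the letters were TGGGAA. SOX sites were taken as AACAAT. The TATA box was read as TATAAA. The GC box was read as GGGCGG.

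Spp1 (chr5:104434861-104435160, plus strand): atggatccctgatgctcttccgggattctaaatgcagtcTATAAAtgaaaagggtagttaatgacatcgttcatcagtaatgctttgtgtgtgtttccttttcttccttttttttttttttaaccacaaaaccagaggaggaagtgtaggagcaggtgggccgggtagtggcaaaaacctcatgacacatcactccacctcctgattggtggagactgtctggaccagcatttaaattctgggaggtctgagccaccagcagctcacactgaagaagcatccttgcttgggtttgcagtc

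Epcam (chr17:87635729-87636028, plus strand): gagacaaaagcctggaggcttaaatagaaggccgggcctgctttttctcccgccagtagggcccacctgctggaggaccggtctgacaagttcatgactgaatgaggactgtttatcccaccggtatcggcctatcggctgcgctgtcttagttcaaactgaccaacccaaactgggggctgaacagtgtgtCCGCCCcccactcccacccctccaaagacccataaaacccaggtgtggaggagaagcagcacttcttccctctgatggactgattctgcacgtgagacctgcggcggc

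RefSeq gives 2 windows for Spp1, and the one printed, at the start of the gene, was the only one of them with a match to any of the motifs. It held TATAAA at position -211 from the start site, a motif found in 13.6% of 32851 promoter windows of the same length, and the Epcam window held the GC box on the opposite strand at -58, found in 35.7%. RefSeq windows matched 5 of the 7 genes. The TEAD, RBPJ and SOX letters were found in none of the windows of these 5 genes, and occur in 14.7%, 25.6% and 10.7% of all windows. No promoter window was used here for Krt19 and Sox9.

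**Figure D1:**
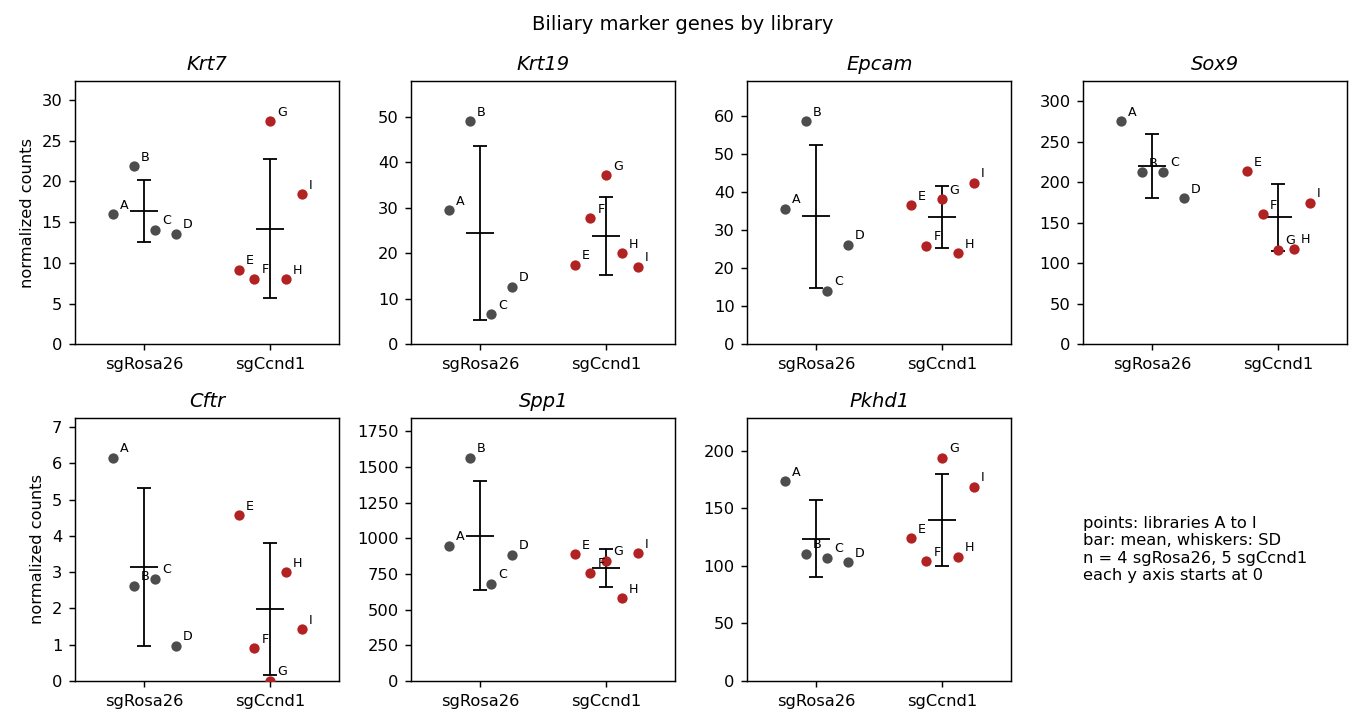
Normalized counts of the 7 biliary markers (y axes, each from 0) in the 4 sgRosa26 and 5 sgCcnd1 libraries, with letters naming libraries, bars the mean and whiskers the SD. In every panel the groups overlap, and library B is the highest point for Krt19 (49.1), Epcam (58.7) and Spp1 (1564).

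Keratins 7 and 19 are the intermediate filament proteins by which bile ducts are recognised in tissue sections. Krt7 (Entrez 110310, chromosome 15, 101412403 to 101427806) had 16.0, 21.9, 14.1 and 13.6 normalized counts in control libraries A to D. In sgCcnd1 libraries E to I it had 9.15, 8.06, 27.4, 8.00 and 18.5. Libraries E, F and H were below every control, G was above every control and I lay among them. The means were 16.4 ± 3.82 (SD, n = 4) and 14.2 ± 8.58 (SD, n = 5), and the log2 fold change was -0.34 with a 95% interval from -1.13 to 0.46 (limma adjusted p = 0.759).

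Krt19 (Entrez 16669, chromosome 11, 100140810 to 100145926) had 29.5, 49.1, 6.57 and 12.6 normalized counts in A to D and 17.5, 27.8, 37.2, 20.0 and 17.0 in E to I. All 5 sgCcnd1 values lay inside the range of the controls, which spanned the highest and the lowest library of the study. The means were nearly equal, 24.4 ± 19.1 in the controls (SD, n = 4) and 23.9 ± 8.58 in sgCcnd1 (SD, n = 5). On the log2 scale the difference was 0.26 with a 95% interval from -0.76 to 1.28 (limma adjusted p = 0.877). Its sign went against that of the arithmetic means, and without library C it was -0.21.

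Epcam (Entrez 17075, chromosome 17, 87635979 to 87651127) encodes a surface adhesion protein of ductal and progenitor cells that adult hepatocytes lack. Its normalized counts were 35.7, 58.7, 14.1 and 26.2 in A to D and 36.6, 26.0, 38.2, 24.0 and 42.6 in E to I. As for Krt19, the sgCcnd1 libraries fell inside the control range, with B highest and C lowest. The means were 33.7 ± 18.9 (SD, n = 4) and 33.5 ± 8.08 (SD, n = 5). The log2 fold change was 0.13 with a 95% interval from -0.61 to 0.86 (limma adjusted p = 0.920), and it was -0.21 without library C.

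Sox9 (Entrez 20682, chromosome 11, 112782210 to 112787757) encodes a transcription factor of the biliary lineage. It had 275, 212, 213 and 181 normalized counts in A to D and 213, 160, 117, 118 and 175 in E to I. In sgCcnd1, F, G, H and I lay below the lowest control, while E matched the middle controls. The means were 220 ± 39.7 (SD, n = 4) and 157 ± 40.8 (SD, n = 5), a ratio of 0.711. The log2 fold change was -0.51 (SE 0.18), with a 95% interval from -0.91 to -0.11. This was the smallest p of the 7 genes, and it did not pass the adjustment over all genes (limma adjusted p = 0.346, unadjusted 0.0163; exact permutation p = 0.0556, two-sided). Without control library A the log2 fold change of Sox9 was -0.40, and its unadjusted limma p rose to 0.0569. In bulk RNA fewer cells of a type and less RNA per cell cannot be told apart, and this holds for each gene described here.

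Cftr (Entrez 12638, chromosome 6, 18170687 to 18322770) encodes the chloride channel of the duct cell's apical membrane. It was near the limit of detection, with 0 to 6 reads in a library and 23 reads in all. Normalized counts were 6.15, 2.63, 2.82 and 0.971 in A to D and 4.57, 0.895, 0, 3.00 and 1.42 in E to I. The 0 in library G allows up to 3 reads, or 2.94 normalized counts (counting error only). The means were 3.14 ± 2.17 (SD, n = 4) and 1.98 ± 1.82 (SD, n = 5), and no difference was detectable at this depth (exact permutation p = 0.429, two-sided, where the smallest possible is 0.00794).

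Pkhd1 (Entrez 241035, chromosome 1, 20057779 to 20618082) encodes fibrocystin, a protein of the duct cell's primary cilium whose loss causes cystic ducts. Its values were 173, 110, 107 and 103 normalized counts in A to D and 124, 104, 194, 108 and 169 in E to I. Library A stood above the other controls, and G was above every control. The means were 123 ± 33.4 (SD, n = 4) and 140 ± 39.7 (SD, n = 5). The log2 fold change was 0.17 with a 95% interval from -0.29 to 0.62 (limma adjusted p = 0.797), and 0.34 without A.

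Spp1 (Entrez 20750, chromosome 5, 104435111 to 104441053) encodes osteopontin, a secreted matrix protein that binds integrins and CD44. It had 947, 1564, 680 and 886 normalized counts in A to D and 888, 758, 842, 580 and 894 in E to I. Library B stood far above the other 8, H was the only sgCcnd1 library below every control, and all 5 sgCcnd1 libraries were below the control mean. The means were 1019 ± 380 (SD, n = 4) and 792 ± 131 (SD, n = 5). The log2 fold change was -0.31 with a 95% interval from -0.75 to 0.13 (limma adjusted p = 0.593). It was -0.08 without library B and -0.48 without library C.

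**Figure D2:**
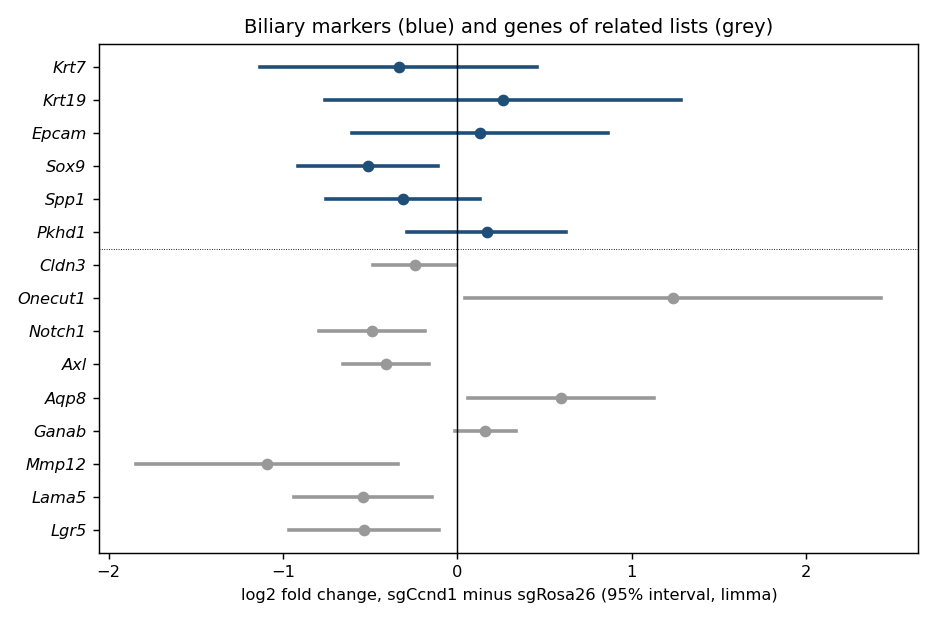
Log2 fold change in limma (x axis, sgCcnd1 minus sgRosa26, n = 5 and 4) with its 95% interval for the 6 biliary markers tested (blue) and for the gene with the smallest p among those reported here from each related list (grey). The blue intervals other than that of Sox9 (-0.91 to -0.11) include 0, and none of the genes shown passed an adjusted p of 0.05 in limma.

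The intervals show which sizes of change these animals could show. The limits below are ratios of geometric means of normalized count + 1, not of the arithmetic means given above. For Krt19 the fold change was 1.20 on this scale, where the ratio of arithmetic means was 0.978. For Krt19 the 95% interval runs from 0.590 to 2.43 times the control level, for Krt7 from 0.457 to 1.37 and for Epcam from 0.657 to 1.82. For Pkhd1 it runs from 0.818 to 1.54, for Spp1 from 0.593 to 1.09 and for Sox9 from 0.531 to 0.925. These genes varied more between animals of a group than most. The residual SD on the log2 scale was 0.87 for Krt19, 0.61 for Epcam and 0.60 for Krt7, above 98.9%, 96.2% and 96.1% of genes tested, where the median gene had 0.20. For Spp1, Pkhd1 and Sox9 it was 0.38, 0.38 and 0.33. Krt7 had 8 to 28 reads in a library, Krt19 7 to 56 and Epcam 15 to 67. At these depths counting alone gives a coefficient of variation of 24.4% for Krt7 in the controls, where 23.3% was observed, and of 26.7% in sgCcnd1, where 60.4% was observed. For Krt19 counting gives 20.0% in the controls and 20.1% in sgCcnd1, where 78.0% and 35.9% were observed. For Spp1, with 580 to 1784 reads, it gives 3.09% and 3.50%, where 37.3% and 16.5% were observed.

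Per kilobase of merged exons the level of Spp1 was highest, at 542 ± 169 normalized counts per kb over all libraries (SD, n = 9). Sox9 followed at 44.7 ± 12.2, Epcam at 15.3 ± 5.88, Krt19 at 13.0 ± 7.10, Pkhd1 at 9.26 ± 2.50, Krt7 at 2.15 ± 0.94 and Cftr at 0.321 ± 0.25 per kb. Epcam and Krt19 did not differ beyond their spread, nor did Krt19 and Pkhd1. The ranges over libraries of the other neighbours in this order did not overlap. Exon lengths came from all annotated transcripts, so a gene with long unused exons is understated.

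**Figure D3:**
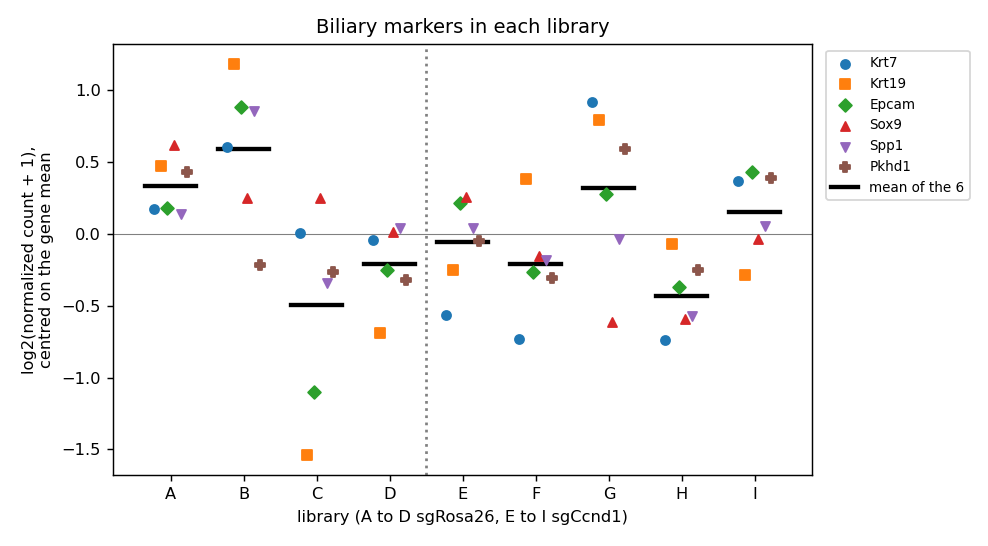
Log2(normalized count + 1) of the 6 biliary markers tested, centred on each gene's mean over the 9 libraries (y axis), in each library (x axis), with the mean of the 6 genes as a black bar. Libraries B (0.59) and A (0.34) have the highest means and C (-0.50) and H (-0.43) the lowest, so high and low libraries occur in both groups.

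Part of the variation of the markers between animals was shared. The mean of the 6 centred log2 levels was 0.34, 0.59, -0.50 and -0.21 in A to D and -0.06, -0.21, 0.32, -0.43 and 0.15 in E to I. High and low libraries thus occurred in both groups. Across the 9 libraries Pearson's r between gene pairs ranged from -0.14 (Krt19 and Sox9) to 0.80 (Epcam and Spp1). For Epcam and Spp1 it was 0.94 within groups and 0.69 without the 2 libraries farthest from the median of Epcam. For Krt19 and Epcam r was 0.79 and fell to 0.22 without the 2 libraries farthest from the median of Krt19. Over all 9 libraries Sox9 had the loosest relation to the keratins, with an r of 0.05 to Krt7. Without the 2 libraries farthest from the median of Krt7 this r was 0.33, above the 0.22 of Krt7 and Krt19. These values describe 9 libraries, and genes measured in the same library share its depth and tissue piece.

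Among the other genes tested that followed the mean of the 6 markers most closely over the 9 libraries were Cbx8 (Pearson's r = 0.92), Ehf (0.90), Rgma (0.88) and Pigf (0.88). Ehf encodes an epithelial transcription factor and had 23.4, 28.9, 16.0 and 16.5 normalized counts in A to D and 22.1, 16.1, 20.6, 12.0 and 21.3 in E to I, with the highest value in B and the lowest in H. For single markers the closest genes were Slc49a3, Anxa3 and Uap1l1 for Krt7 (r from 0.94 to 0.96), and Ccdc85b, Cdk10 and the pseudogene Impdh2-ps for Krt19 (0.90 to 0.95). They included Ctsk and Tmem241 for Epcam (0.94 to 0.96), and were Mfsd12, Marcksl1 and 6530402F18Rik for Sox9 (0.95 to 0.97), Zfp950, Arvcf and Kcnab1 for Spp1 (0.95 to 0.97), and Pld1, Rad51b and Cables1 for Pkhd1 (0.91 to 0.94). Being the highest among all genes tested, these values are large by selection.

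**Figure D4:**
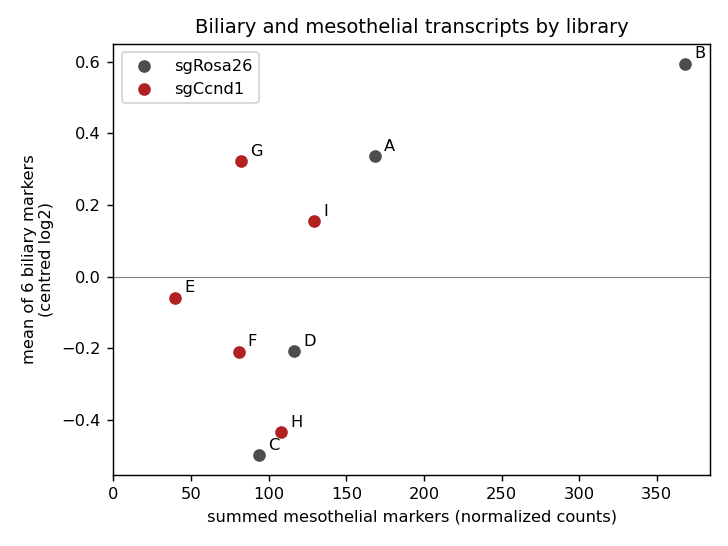
Mean centred log2 level of the 6 biliary markers (y axis) against the summed normalized counts of 9 mesothelial markers (x axis), 1 point a library, grey for sgRosa26 and red for sgCcnd1. Library B lies apart at the upper right, with a mesothelial sum of 368 where the other libraries have 39.6 to 168.

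Markers of other cells that make the same transcripts were read beside these values. The 9 mesothelial markers summed to 168, 368, 93.9 and 117 normalized counts in A to D and to 39.6, 80.6, 82.2, 108 and 129 in E to I. Library B, highest for Krt19, Epcam and Spp1, was thus also highest for the capsule markers, with 78.0 normalized counts of Upk3b and 54.3 of Msln. It also had the highest sums of portal mesenchyme and smooth muscle (2620) and stellate cell (4422) markers. The same held for lipid-associated macrophage (3080) and T and B cell (325) markers. Hepatocyte, Kupffer cell, endothelial, gut and gallbladder marker sums were highest in other libraries. Of the 4 mesothelial markers tested, all 4 had a log2 fold change below 0 (median -0.95), beside 47.1% of all genes tested. Of these 4 markers 0 passed the adjustment. Wt1 did not overlap between groups, with 43.4 ± 23.9 normalized counts in sgRosa26 (SD, n = 4) and 18.1 ± 5.07 in sgCcnd1 (SD, n = 5; limma adjusted p = 0.255). Gpm6a was the most abundant of them in the controls, at 45.0 ± 32.3. None of the 9 was at 0 in every library, and Krt14 was at 0 in all but B. The part of mesothelium in the keratin values was not tested.

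Macrophage markers were read beside Spp1. The 10 markers of lipid-associated macrophages summed to 2455 to 3080 normalized counts in the controls and 2511 to 2937 in sgCcnd1, and Cd36, a fatty acid receptor gene not limited to macrophages, was the most abundant. The sum was mostly Cd36 and Cd9, which averaged 1099 and 611 over the 9 libraries. All 10 were tested and none was at 0 in every library. Of the 10, 6 had a log2 fold change below 0 (median -0.46), beside 47.1% of all genes tested. These were Gpnmb (-1.34), Mmp12 (-1.09), Itgax (-0.78), Trem2 (-0.63), Lgals3 (-0.57) and Lpl (-0.35). The other 4, Fabp5 (0.48), Cd36 (0.27), Cd63 (0.12) and Cd9 (0.06), were above 0, and 0 of the 10 were called. Gpnmb had 78.7, 82.4, 43.2 and 16.5 normalized counts in A to D and 13.7 to 27.8 in sgCcnd1 (limma adjusted p = 0.300). Library B was the highest of the 9 for 5 of the 10 markers, Gpnmb, Mmp12, Lgals3 (154), Trem2 (30.7) and Cd63 (182). The other 5 were highest elsewhere, Itgax and Lpl in A, Fabp5 in F, Cd9 in G and Cd36 in I. The part of macrophages in the Spp1 values was not tested.

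Markers of other epithelia were mixed. The acinar genes Cpa1, Cela3b, Pnlip and Amy2a5 were at 0 in all 9 libraries, as were the mucin gene Muc5b and Reg3b of the gallbladder and gland list. The summed level of the gallbladder and gland list was 85.5 to 112 normalized counts in the controls and 79.7 to 106 in sgCcnd1, mostly Tff1 and Sox17, which were the 2 genes of the list tested. The pancreas and gut list summed to 550 to 1820 and 1090 to 1440 normalized counts, mostly Fabp2, which averaged 863 over the 9 libraries, with Lgals4 at 191, Cela1 at 167, Vil1 at 12.4 and Cela2a at 6.02. Of its 4 genes tested 3 had a log2 fold change above 0 and 0 were called. The part of such cells in the marker values was not tested. Alb, the defining transcript of hepatocytes, was at 1247280 to 1677960 normalized counts, and the 12 hepatocyte markers had a median log2 fold change of 0.09 with 0 called. The median was -0.22 for 11 portal mesenchyme and smooth muscle genes tested, -0.20 for 8 stellate cell genes, -0.05 for 8 endothelial genes and 0.00 for 8 Kupffer cell genes. It was -0.58 for 8 T and B cell genes, all 8 below 0 (Cd3e -1.52, limma adjusted p = 0.321). Also below 0 were 10 portal mesenchyme and smooth muscle genes, 6 stellate cell, 5 endothelial and 4 Kupffer cell genes. Of all genes tested 47.1% were below 0. Each of these lists had 0 genes called in limma.

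Genes of the pathways around the ducts were taken from 9 lists. In limma 0 of their genes passed the adjustment in either direction. DESeq2 on the recovered reads called 2, both lower in sgCcnd1, of which Mmp12 is described below. Over all genes tested DESeq2 called 0.900%, with 76 lower and 41 higher. In the counts that follow, 47.1% of all genes tested had a log2 fold change below 0.

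Of 17 other keratin, junction and surface genes of duct epithelium, 13 were tested, and 8 of these had a log2 fold change below 0 (median -0.10). The tight junction gene Cldn3 had 1502 ± 143 normalized counts in the controls (SD, n = 4) and 1273 ± 168 in sgCcnd1 (SD, n = 5; log2 fold change -0.24, limma adjusted p = 0.446). Krt18, the keratin partner of Krt8 in hepatocytes and ducts, was at -0.22 and Prom1, a progenitor surface protein, at 0.62 on the log2 scale (limma adjusted p = 0.514 and 0.559). When a library was left out, Prom1 ranged from 0.34 (without C) to 1.02 (without B). Krt18 was at -0.12 without library B and Cldn3 at -0.16 without library I. Like Epcam, Prom1 was highest in library B (37.7 normalized counts) and lowest in C (8.45).

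Among 12 transcription factors of the biliary lineage, 10 were tested and 6 had a log2 fold change below 0 (median -0.01). Onecut1, a factor of early liver and duct development, had 78.4 ± 35.3 normalized counts in the controls (SD, n = 4) and 242 ± 226 in sgCcnd1 (SD, n = 5). Its log2 fold change was 1.23 (limma adjusted p = 0.443), and 0.77 without library H, where it had 632 normalized counts beside 46.0 to 192 in the rest of its group. Klf6 was at -0.23 (limma adjusted p = 0.628), and at -0.12 without library B.

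Of 19 Notch pathway genes, 18 were tested and 13 had a log2 fold change below 0 (median -0.08). The receptor gene Notch1 had 443 ± 30.9 normalized counts in the controls (SD, n = 4) and 320 ± 61.6 in sgCcnd1 (SD, n = 5), and the groups did not overlap (log2 fold change -0.49, limma adjusted p = 0.279). Lfng, which modifies Notch receptors, was at -0.53 and Notch2, the receptor that patterns the ducts, at -0.22 (limma adjusted p = 0.375 and 0.495). Notch2 was at -0.10 without library A. In the YAP and TEAD list, 19 genes were tested and 11 were below 0 (median -0.02). Axl, a receptor kinase gene and YAP target, was at -0.41, Vgll4, a TEAD inhibitor, at 0.39 and Amotl1 at -0.24 (limma adjusted p = 0.266, 0.490 and 0.550). Leaving out library B put Vgll4 at 0.22.

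Ductular secretion was covered by 21 channel, exchanger and receptor genes beside Cftr. Of these, 16 were tested and 7 had a log2 fold change below 0 (median 0.05). The water channel Aqp8, which hepatocytes also make, was at 0.59 and the bile acid transporter Slc10a2 at 0.23. Itpr3, a calcium channel gene of the duct apex, was at -0.41 (limma adjusted p = 0.406, 0.413 and 0.576 for the 3 genes). Without library F Itpr3 was at -0.22. Sctr, the secretin receptor gene, had 0 to 4.38 normalized counts and was not tested, and Gpbar1 was at 0 in every library. Beside Pkhd1, 20 of 21 cilium and cystic disease genes were tested, with 10 below 0 and a median of -0.01. Ganab, mutated in polycystic disease, was at 0.16 and Tulp3, a ciliary trafficking gene, at -0.35 (limma adjusted p = 0.496 and 0.604). Ganab was at 0.10 without library B.

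Osteopontin receptors and the proteases that cut osteopontin made up a list of 16 genes, 13 of them tested and 9 below 0 (median -0.06). Mmp12, a macrophage elastase gene, had 61.5, 77.1, 46.9 and 18.5 normalized counts in A to D and 20.6, 23.3, 14.7, 21.0 and 25.5 in E to I. Library D lay among the sgCcnd1 values. The log2 fold change was -1.09 (limma adjusted p = 0.307). In DESeq2 it was -1.29 (adjusted p = 0.0394), and without library H it was again -1.29, with an adjusted p that DESeq2 left undefined. Itgb3, an integrin chain that binds osteopontin, had 36.5 ± 5.65 normalized counts in the controls (SD, n = 4) and 50.7 ± 5.98 in sgCcnd1 (SD, n = 5) without overlap (log2 fold change 0.47, limma adjusted p = 0.334). Cd44, the other class of receptor, was at -0.51 (limma adjusted p = 0.388).

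Ligands, receptors and matrix genes known from ductular reactions had 18 of 27 genes tested, 14 of them below 0, with a median of -0.24. Lama5, a laminin chain, had 115 ± 23.8 normalized counts in the controls (SD, n = 4) and 79.4 ± 16.7 in sgCcnd1 (SD, n = 5) without overlap (log2 fold change -0.54, limma adjusted p = 0.334). Egfr had 5928, 2185, 5916 and 2716 normalized counts in A to D and 4567 to 8644 in sgCcnd1. Controls A and C thus lay among the sgCcnd1 values. Its log2 fold change was 0.86 and that of the chemokine gene Ccl2 -0.72 (limma adjusted p = 0.334 and 0.375). Of 12 fetal and progenitor genes, 7 were tested and 5 were below 0 (median -0.10). Lgr5, a Wnt pathway receptor, was at -0.54, Gpc3 at -0.92 and Prom1 at 0.62 (limma adjusted p = 0.358, 0.537 and 0.559).

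**Figure D5:**
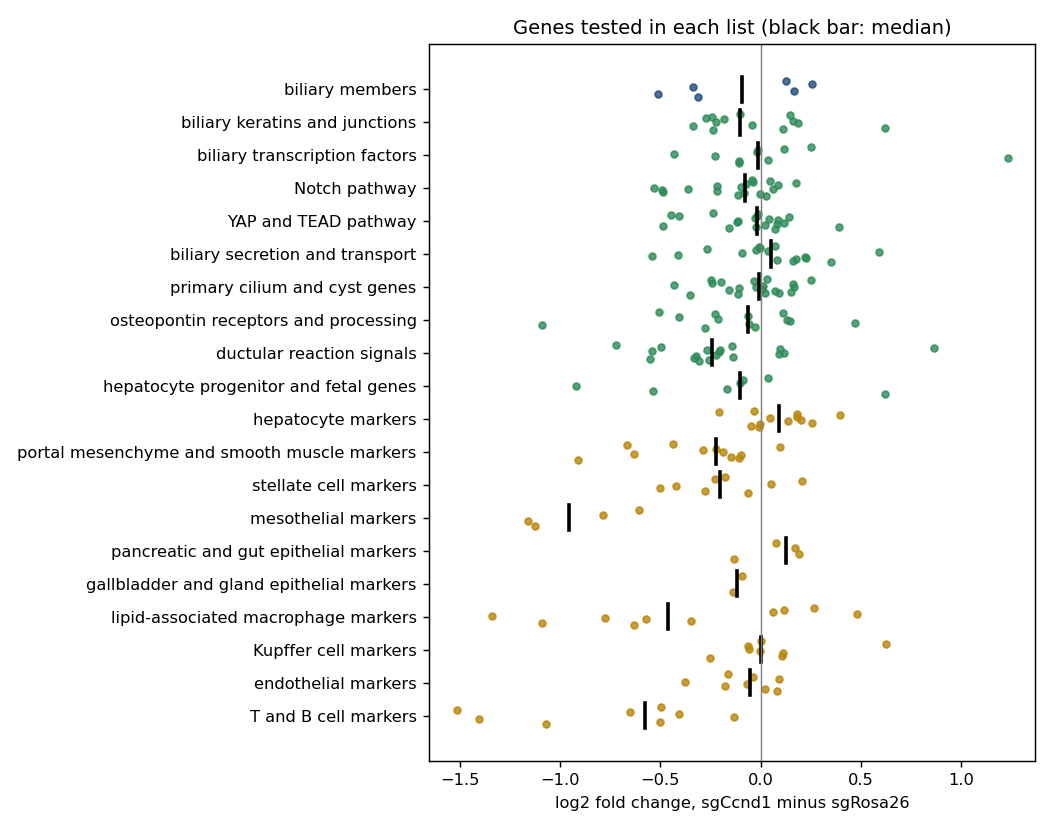
Log2 fold change (x axis, sgCcnd1 minus sgRosa26) of each gene tested in each list (rows; blue, the biliary markers, green, related pathways, ochre, markers of other cell types), with the list median as a black bar. The biliary markers lie between -0.51 and 0.26, and none of the points passed an adjusted p of 0.05 in limma.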

How the data were processed

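The deposited table holds a never-negative signal per gene and library that its name calls normalized counts. The submitters' processing notes name Trim Galore 0.6.7, HISAT2 2.2.1, featureCounts 2.0.3, FastQC 0.74, MultiQC and DESeq2 2.11.40.8 and the builds mm10 and GRCm38. The annotation and the use of strand are not given in the sources used here, so reads of overlapping genes cannot be told apart. Within each library 100% of values above 0 were whole multiples of 1 number (within 0.01 read or a relative error of 1e-06), that is, each value is a whole number of reads scaled by 1 factor per library. Columns name a group and an animal but no replicate number.

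Log2(normalized count + 1) was fitted for 12993 genes (minimum mean 10) with limma 3.58.1 (R 4.3.3, lmFit and eBayes with trend, two-sided, no covariates), with Benjamini-Hochberg adjustment over all genes tested and a threshold of 0.05. It used 4 and 5 libraries. Cftr, below that minimum, was compared by an exact permutation test over 126 regroupings. Fold changes on this scale understate changes of low genes. Count models, edgeR 4.0.16 (quasi-likelihood) and DESeq2 1.42.0, were run on the recovered reads as alternatives, and they called 1 and 117 genes. In library H the factor from reads to normalized counts was 0.999582. Only its larger values differ visibly from whole numbers, such as 579.758 for 580 reads of Spp1. Both count models were also run without library H, an alternative chosen after seeing the data. Other alternatives were pseudocounts of 0.1 and 10, no minimum or a minimum mean of 100, quantile and 75th percentile scaling, robust eBayes, array weights, exact permutation and leaving out each library. The tests were tried on simulated counts.

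The members and lists were chosen with earlier results of these data known. Named genes were the 7 markers, the 3 genes with the smallest limma p in each of 9 pathway lists, the 5 genes closest to the mean of the markers, the 3 closest to each marker, Ccnd1 and the most abundant gene of each cell marker list. All other list members in the text were named after their values were seen. Some genes that this rule names are not reported here. Exon lengths came from GENCODE M21 and positions and promoters from RefSeq, both on GRCm38. Counting intervals cover counting error only, since the labels name no molecular identifiers. Figures were drawn with matplotlib 3.10.9.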

Additional observations from a re-analysis of the deposited data

Results flagged for a closer look

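Of 64 groups of 4 or 5 values examined, 5 had a library far from the others, where chance gives about 3.2. Among the biliary markers this was Pkhd1 in control library A, with 173 normalized counts beside 103 to 110 in the other controls. The rest concern genes of the related lists. In sgCcnd1, Onecut1 had 632 normalized counts in library H beside 46.0 to 192, and Axl had 419 in E beside 280 to 311. Lgr5 had 139 in G beside 63.0 to 78.1, and Gpc3 had 27.0 in I beside 5.34 to 8.00. No cause was tested for any of these values.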

How the results depend on the processing

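No paired analysis was possible because no column name holds a replicate number. Of the 6 biliary markers tested in limma 0 passed the threshold in any of the alternatives run, although DESeq2 left the adjusted p undefined for Krt7 and, without library H, also for Krt19 and Epcam, and Krt7, Sox9, Spp1 and Pkhd1 kept their direction in all of them. For Cftr 13 alternatives were run (other pseudocounts, no minimum, permutation of log2 values and each library left out), none of them with a count model or another scaling, and its difference stayed below 0 in these. Krt19, at 0.26, was at -0.042 with edgeR and TMM scaling, -0.038 with edgeR and RLE scaling and -0.040 with DESeq2. Epcam, at 0.13, was at -0.038, -0.034 and -0.027. Without library H the count models gave values above 0, with Krt19 at 0.018 in edgeR and 0.020 in DESeq2 and Epcam at 0.060 and 0.072. When each library was left out in turn, the log2 fold change ranged from -0.60 to -0.19 for Krt7, from -0.21 (without C) to 0.70 (without B) for Krt19 and from -0.21 (without C) to 0.45 (without B) for Epcam. It ranged from -0.63 to -0.40 for Sox9, from -0.87 to -0.23 for Cftr, from -0.48 to -0.08 for Spp1 and from 0.04 to 0.34 for Pkhd1. The adjusted p of Sox9 ranged from 0.180 to 0.638 over its alternatives.

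The number of genes lower over the whole table, 1 in limma, became 76 under DESeq2. Leaving out library H gave 25 under DESeq2 and 0 under edgeR. Quantile scaling gave 2, and exact permutation gave 0. It was 0 to 2 in limma when a library was left out (0 without B, D, F, H or I, 2 without E or G). Genes higher, 0 in limma, numbered 41 under DESeq2, or 16 once H was left out. Of the pathway list genes, 0 in limma, DESeq2 called 2 lower and, without H, 1, where the adjusted p of Mmp12 was undefined and its log2 fold change stayed at -1.29. The causes of these differences were not tested. Depth limits Cftr, with 23 reads over all 9 libraries.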
